A study of Danio rerio with 8 samples.

Results

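Genes for hypothalamic neuropeptides were examined in whole zebrafish larvae after transient knockdown of LIS1, together with th, which encodes the enzyme at the rate-limiting step of dopamine and noradrenaline synthesis. The set was fixed by name and holds 10 genes, namely hcrt, oxt, avp, agrp, npy, crhb, pmch, galn, sst1.1 and th. All array probes whose identifier is a RefSeq transcript of one of these genes were taken. This gave 11 probes for 7 of the 10 genes, out of 43603 probes on the array that are not controls, of which those with a RefSeq name cover 12858 genes. For agrp, pmch and galn (now named gal) no probe matched, so their transcripts were not analysed here.

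LIS1 morphant larvae, injected with a morpholino against LIS1, were compared with larvae labelled as wild type controls. Both groups were of the WIK background and came out of shared batches of eggs, and both were taken at 4 days post fertilization. There were 4 morphant samples and 4 control samples, each of them a pool of 10 larvae on its own 1-colour array. The morphants had been chosen for a mild phenotype with seizures, so they do not stand for all injected larvae, and the labels do not say whether controls were injected. LIS1 is a regulator of the motor protein dynein that is needed for neuronal migration, and zebrafish have the paralogs pafah1b1a and pafah1b1b.

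The hypothalamus and the adjoining preoptic area hold small groups of neurons, each marked by its own secreted peptide. Peptide precursors are cut in secretory granules and released either in the brain or, by neuroendocrine cells, towards the pituitary. Hypocretin promotes wakefulness, corticotropin-releasing hormone starts the stress response, isotocin and vasotocin are the fish forms of oxytocin and vasopressin, and neuropeptide Y promotes feeding. In whole larvae these transcripts come from few cells. With such bulk RNA, fewer cells of a type and less RNA per cell cannot be told apart.

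A level here is the log2 of a probe's processed signal minus the log2 of the 75th percentile on that array, so a change is relative to that percentile. Between 83.8% and 88.8% of spots per array were well above background, and no spot was saturated. That percentile was itself at 1600 ± 154 in morphants and 1240 ± 178 in controls (SD, n = 4 each, two-sided exact permutation p = 0.0571, where 0.0286 is the smallest p this design allows). The added spike-in RNA went the other way, at 5080 ± 326 in morphants and 6550 ± 699 in controls (SD, n = 4 each, exact permutation p = 0.0286). The transcripts of the targeted genes gave no check of the knockdown. The brightest probes of pafah1b1a and pafah1b1b changed by 0.07 and -0.03 (limma adjusted p = 0.791 and 0.944). The other pafah1b1a probe passed as higher in morphants, at 0.65 (limma adjusted p = 0.0305), without overlap of the groups, so the probes of this gene disagree. Further pafah1b1b probes lay between 0.0 and 0.07. Whether the morpholino blocks translation or splicing is not stated in the labels.

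Among the neuropeptide genes measured, hcrt and crhb were lower in LIS1 morphants and none was higher at the threshold used, an adjusted p of 0.05. Of the 10 probes well enough above background to be tested, 3 fell (the single hcrt probe and both crhb probes), and 0 rose in the limma fit, where 0 also had an unadjusted p under 0.05 with a change above 0. Over all 36700 probes tested, 21.0% fell and 17.4% rose, so the share of calls among these probes lies near what the array shows as a whole. Their median change was -0.19, against -0.03 over all probes tested. The groups did not overlap for 2 of the 10 probes, whereas they did not overlap for 37.9% of all probes tested.

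**Figure D1:**
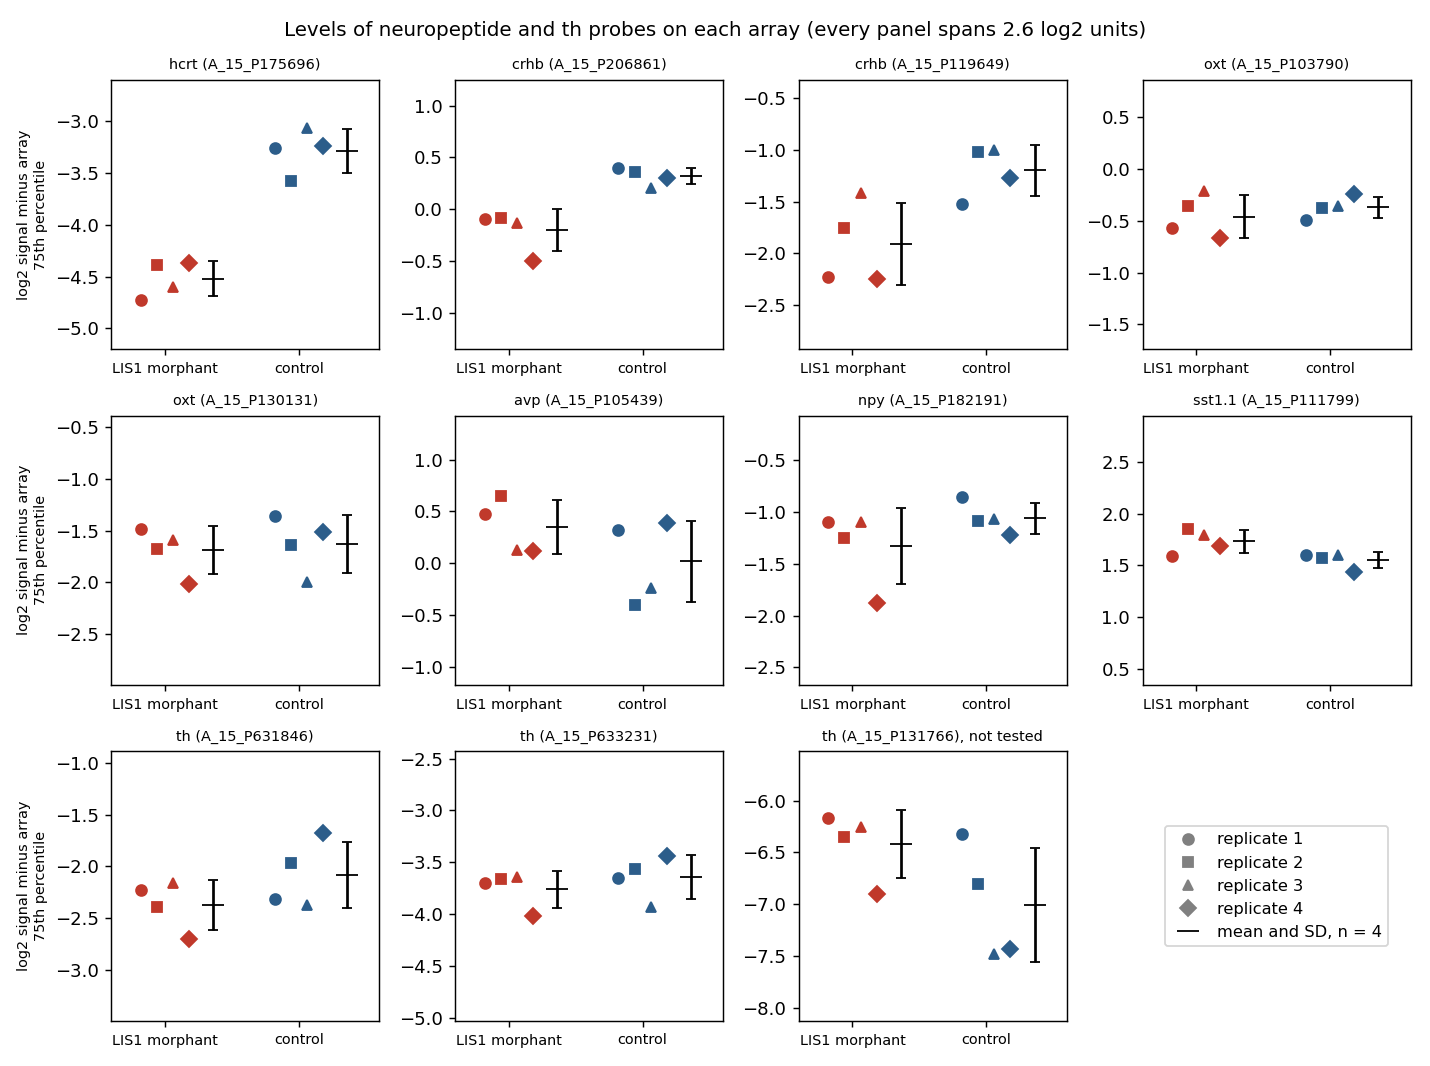
Log2 signal of each probe relative to the array's 75th percentile (vertical axis, every panel spanning the same range) in the LIS1 morphant pools (red) and the control pools (blue), with replicates by symbol and the mean and SD in black. The 4 morphant pools lie below all 4 control pools for hcrt and for the brighter crhb probe (A_15_P206861), and the groups overlap in every other panel.

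The largest change in the set was that of hcrt, the precursor gene of the wake-promoting hypocretin (orexin) peptides. Its probe read -4.73, -4.39, -4.60 and -4.37 in the 4 morphant pools, against -3.26, -3.58, -3.07 and -3.24 in the 4 control pools. Every morphant pool was lower than every control pool, and the gap between the groups was wider than the range within either. The mean was -4.52 ± 0.17 in morphants and -3.29 ± 0.21 in controls (SD, n = 4 each). The transcript thus fell by 1.23 on the log2 scale (SE 0.15, limma adjusted p = 0.000464), which is 2.35-fold lower, with a 95% confidence interval of 1.86-fold to 2.97-fold.

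The direction for hcrt did not rest on the scaling. The processed signals themselves, before any scaling, were 55.1, 85.3, 61.7 and 80.1 in morphant pools, against 113, 96.8, 177 and 129 in control pools, and again did not overlap. Each slide carried 1 morphant and 1 control array, and the difference was below 0 on all 4 slides, between -1.52 and -0.82. The probe is dim but was well above background on all 8 arrays. Its size and call did depend on the processing: with normexp background correction and percentile scaling the change was -0.53 (limma adjusted p = 0.479), with normexp and quantile normalization -0.55 (limma adjusted p = 0.00224), from the deposited value table -0.81 (limma adjusted p = 0.000955), and with scaling to the spike-in RNA it was -0.50 (limma adjusted p = 0.0631).

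The 2 probes of crhb, a corticotropin-releasing hormone gene, were both lower in morphants. The brighter one (A_15_P206861) read -0.09, -0.08, -0.13 and -0.50 in morphant pools, against 0.40, 0.36, 0.21 and 0.30 in control pools. No morphant pool reached a control pool, and the lowest of all was morphant replicate 4. The mean was -0.20 ± 0.20 in morphants and 0.32 ± 0.08 in controls (SD, n = 4 each), a fall of 0.52 (SE 0.13, limma adjusted p = 0.0143).

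The second crhb probe (A_15_P119649) read -2.23, -1.76, -1.42 and -2.25 in morphants, against -1.52, -1.02, -1.0 and -1.27 in controls. Here the groups touched, because morphant replicate 3 was above control replicate 1. It fell by 0.71 (SE 0.22, limma adjusted p = 0.0303). The call on this probe was lost without morphant replicate 1 or 4 or without control replicate 2 or 3, with adjusted p-values between 0.0734 and 0.0815. Both probes were lower in the morphant pool than in the control pool on every slide, with differences between -0.80 and -0.34 for the brighter probe and between -0.98 and -0.42 for the second.

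The fall of crhb was one relative to the other transcripts of the array. Unscaled signals of its brighter probe were 1370, 1690, 1360 and 1170 in morphants, against 1430, 1480, 1720 and 1500 in controls, and overlapped. Without scaling neither probe passed, at -0.14 and -0.34 (limma adjusted p = 0.52 and 0.329), and relative to the spike-in RNA they turned to 0.22 and 0.03 (limma adjusted p = 0.329 and 0.943). The median over all probes tested moved to 0.34 without scaling and to 0.71 relative to the spike-ins. Both settings shift every probe of an array alike. The place of crhb below that median was therefore fixed in advance and adds no support. With normexp and percentile scaling the crhb changes were -0.48 and -0.51, and neither passed (limma adjusted p = 0.0571 and 0.184).

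**Figure D2:**
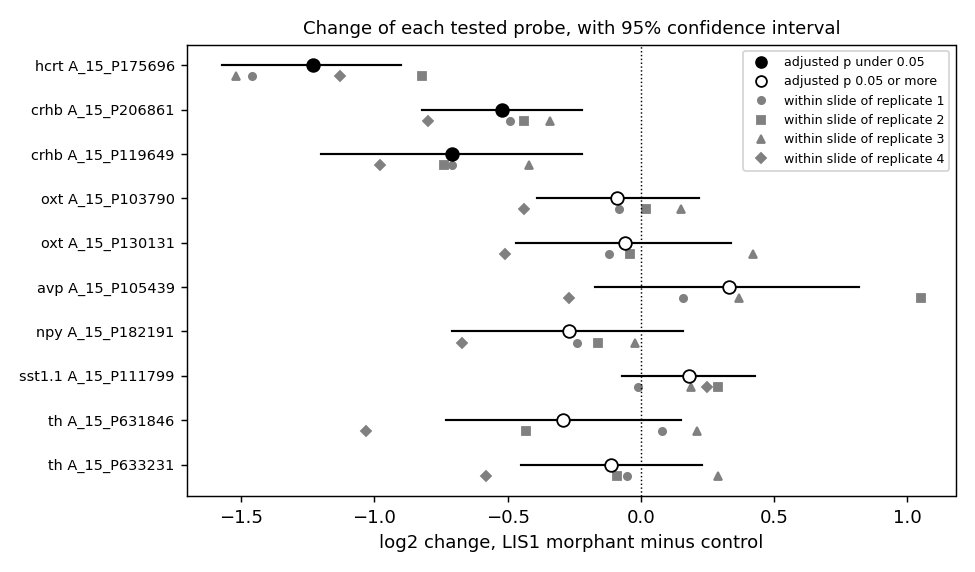
Log2 change of each tested probe, LIS1 morphant minus control (large symbols, filled where the adjusted p was under 0.05), with its 95% confidence interval, and below it the difference within each of the 4 slides (grey symbols). The hcrt and crhb intervals lie below 0, and the intervals of the other 7 probes include 0.

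The other 7 tested probes, of oxt, avp, npy, sst1.1 and th, changed by -0.29 to 0.33 and did not pass, with adjusted p-values between 0.228 and 0.799 (limma). Their intervals reach down to -0.73 for th and up to 0.82 for avp, while those of avp and sst1.1 end at -0.17 and -0.07 below 0. None of them shows that a gene was equal in the groups. Directions of this size also turn with the scaling. Without scaling avp and sst1.1 were at 0.70 and 0.56 and passed as higher (limma adjusted p = 0.0387 and 0.0373), as did 32.3% of all probes. Relative to the spike-in RNA all 7 were above 0, and 5 passed as higher (avp, sst1.1, both oxt probes and the second th probe), as did 58.3% of all probes.

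The nonapeptide genes oxt and avp are made in separate neurons of the preoptic area. The brighter oxt probe (A_15_P103790) read -0.57, -0.36, -0.21 and -0.67 in morphants, against -0.49, -0.38, -0.36 and -0.24 in controls. Morphant pools lay both above and below the controls, and the change was -0.09 (95% confidence interval -0.39 to 0.22, limma adjusted p = 0.64). The second oxt probe (A_15_P130131) changed by -0.06, with an interval from -0.47 to 0.34. The avp probe read 0.48, 0.65, 0.13 and 0.12 in morphants, against 0.32, -0.40, -0.24 and 0.39 in controls. It varied more within the control group (SD 0.39) than the other neuropeptide probes tested did. Its change of 0.33 had an interval from -0.17 to 0.82 (limma adjusted p = 0.26), and within slides the difference ran from -0.27 to 1.05.

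The npy probe, for the feeding peptide, read -1.10, -1.25, -1.10 and -1.88 in morphants, against -0.86, -1.09, -1.07 and -1.22 in controls. Morphant replicate 4 stood lowest, and the other 3 morphant pools were within or just below the controls. The change was -0.27 (95% confidence interval -0.71 to 0.16, limma adjusted p = 0.29), and without that pool it was -0.09 (limma adjusted p = 0.642).

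The somatostatin gene sst1.1 is active in the brain and in the endocrine pancreas, and this probe cannot separate the sources. It read 1.59, 1.85, 1.79 and 1.69 in morphants, against 1.6, 1.57, 1.6 and 1.44 in controls. All but 1 of the morphant pools were above every control pool. The change of 0.18 had an interval from -0.07 to 0.43 (limma adjusted p = 0.228). Of 10 islet genes measured, each by its brightest probe and all above background, 2 rose and 3 fell, and the median change was -0.07. Over all genes taken by their brightest probe, 16.3% rose and 21.7% fell, with a median of -0.06. The mean level of the islet genes lay between -0.12 and 0.06 in morphants and between -0.22 and -0.11 in controls. The islet transcription factor genes mnx1 and nkx2.2a rose by 0.87 and 0.50, and pax6b, isl1a and nkx6.2 fell by 0.62, 0.43 and 0.40 (limma adjusted p = 0.000653, 0.0116, 0.0402, 0.0192 and 0.0328), all of which are also active in neurons. The 3 calls as lower were lost on leaving out single arrays (adjusted p up to 0.101, 0.0593 and 0.0864) and that of pax6b with the replicate block (adjusted p = 0.0829). Median scaling also lost those of pax6b and nkx6.2 (limma adjusted p = 0.0608 and 0.0861). For nkx6.2 the call was lost too with normexp and quantile normalization, at -0.17, and in the deposited value table, at -0.19 (limma adjusted p = 0.125 and 0.205). The islet calls numbered 2 in place of 5 without morphant replicate 2, and 3 without morphant replicate 3 or control replicate 2 or 4. The insulin gene ins changed by -0.06 (limma adjusted p = 0.865) and the glucagon gene gcga by 0.85 (limma adjusted p = 0.10). Also of this list, pdx1 was at 0.66 without passing (limma adjusted p = 0.0575), while its other probe passed as higher, at 1.85 (limma adjusted p = 0.00319). For neurod1, at -0.08 (limma adjusted p = 0.69), the other probe passed as lower, at -0.77 (limma adjusted p = 0.0401). The share of these cells in the sst1.1 signal was not tested.

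The brightest of the 3 probes of th (A_15_P631846) read -2.23, -2.39, -2.16 and -2.70 in morphants, against -2.31, -1.97, -2.37 and -1.68 in controls. The groups overlapped, and the change was -0.29 (95% confidence interval -0.73 to 0.15, limma adjusted p = 0.258). The second probe (A_15_P633231) changed by -0.11 (interval -0.45 to 0.23). The third (A_15_P131766) was well above background on 3 of 4 morphant arrays and 1 of 4 control arrays and was therefore not tested. It read -6.17, -6.35, -6.25 and -6.90 in morphants, against -6.32, -6.80, -7.48 and -7.43 in controls.

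Besides dopamine neurons, th is used by noradrenergic neurons and by sympathetic cells. Among 8 measured genes listed for those cells 4 rose and 1 fell, beside 16.3% and 21.7% of all genes, with a median of 0.43. Their mean level lay between -0.92 and -0.71 in morphants and between -1.49 and -1.03 in controls. In whole larvae their signal need not come from those cells. The gene dbh, which encodes the enzyme that turns dopamine into noradrenaline, rose by 1.33 (SE 0.23, limma adjusted p = 0.00259) and read -4.36, -4.26, -4.77 and -4.51 in morphants, against -5.34, -5.72, -5.70 and -6.43 in controls. No morphant pool overlapped a control pool. As dbh was above background on 3 of 4 control arrays, it entered the test through the morphant group, in which it is high. With normexp and percentile scaling it was at 0.46 (limma adjusted p = 0.579). The transcription factor genes hand2 and phox2a, which act in the development of noradrenergic cells, rose by 0.60 and 0.51 (limma adjusted p = 0.00461 and 0.0138), whereas insm1a fell by 0.55. Further hand2 probes, at 0.85 and 0.49, passed as higher too. The other probes of phox2a and insm1a, at 0.14 and -0.12, did not pass (limma adjusted p = 0.673 and 0.679). The part of noradrenergic and sympathetic cells in the th result was not tested.

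Of 16 measured genes listed beside th for the handling of dopamine or for dopamine neurons, 2 rose and 3 fell. These shares are close to the 16.3% and 21.7% of all genes. Without control replicate 2 or 3, 3 of the list's genes passed in place of 5. The pteridine genes spra and qdprb.1, which serve the cofactor of tyrosine hydroxylase, rose by 1.14 and 0.45 (limma adjusted p = 0.00816 and 0.0321). The spra probe was above background on 3 of 4 control arrays and so was tested through the morphant group. With normexp and percentile scaling it was at 0.36 (limma adjusted p = 0.74). The call of qdprb.1 was lost with the replicate block (adjusted p = 0.0544) and on leaving out single arrays (up to 0.0898). The dihydropteridine reductase gene qdpra fell by 0.89, and nr4a2b, a transcription factor gene of dopamine neurons, fell by 0.65 (limma adjusted p = 0.00525 and 0.0106). The third that fell, by 0.55 (limma adjusted p = 0.027), was comta, a catechol-O-methyltransferase gene that serves dopamine breakdown, and leaving out single arrays lost this call (adjusted p up to 0.0735). The decarboxylase gene ddc changed by -0.99 without passing (limma adjusted p = 0.0817). Its 8 further probes lay between -1.87 and -0.36, of which 1, at -1.87, passed as lower (limma adjusted p = 0.00379). The dopamine transporter gene slc6a3 was at 0.25 (limma adjusted p = 0.275).

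Receptors for these peptides and for dopamine were thinly covered. Of the listed receptor and binding protein genes, 21 had a named probe and 14 were measured above background, of which 3 rose and 3 fell, beside 16.3% and 21.7% of all genes. No receptor of hypocretin was among them. The corticotropin-releasing hormone receptor gene crhr2 read -1.71, -1.34, -1.53 and -1.42 in morphants, against 0.18, 0.40, 0.36 and 0.87 in controls. It was lower in every morphant pool and fell by 1.95 (SE 0.17, limma adjusted p = 9.9e-05). Of 8 further probes of this gene, 6 passed as lower, at -1.94 to -1.58. Those at -0.12 and 0.04 did not pass (limma adjusted p = 0.769 and 0.934). Direction and approximate size are thus shared by most probes, but not by all.

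The binding protein gene crhbp, whose product sequesters the same hormone, changed by -0.20 by its brightest probe (limma adjusted p = 0.508). Its other probes went the opposite way, at 0.37 and 0.76 (limma adjusted p = 0.0817 and 0.00796), so the probes disagree and no direction is given. The neuropeptide Y receptor gene npy1r and the melanocortin receptor gene mc3r fell by 1.49 and 0.83 (limma adjusted p = 0.0142 and 0.0145), each being above background on 3 of 4 morphant arrays and so tested through the controls, in which they are high. With normexp and percentile scaling they were at -0.31 and -0.16 (limma adjusted p = 0.812 and 0.926), and mc3r also missed the threshold with normexp and quantile normalization (adjusted p = 0.144) and in the deposited value table (adjusted p = 0.0511). Dopamine receptor genes drd3 and drd4a rose by 1.23 and 1.09 (limma adjusted p = 0.000947 and 0.00817), although the other drd4a probe was at -0.27. The somatostatin receptor gene sstr5 rose by 0.59 (limma adjusted p = 0.0256), a call lost on leaving out single arrays (adjusted p up to 0.0733).

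Of 11 genes for peptide processing and secretory granules, 2 fell and 0 rose in the limma fit, beside 21.7% and 16.3% of all genes. In that fit 0 of them also had an unadjusted p under 0.05 with a change above 0. The prohormone convertase gene pcsk1, which cuts precursors such as these, fell by 0.86 (SE 0.21, limma adjusted p = 0.0116). Its other probe was at -0.77 and passed too. With normexp and percentile scaling the brightest pcsk1 probe was at -0.30 (limma adjusted p = 0.77). The carboxypeptidase E gene cpe, which trims the cut peptides, fell by 1.02 (limma adjusted p = 0.0175), and without control replicate 2 it missed the threshold (adjusted p = 0.0518), which left 1 call in the list. Its 4 other probes disagreed, at -0.64 to 0.66. Of these, that at -0.37 passed as lower (limma adjusted p = 0.037). Those at -0.64, 0.19 and 0.66 did not pass (limma adjusted p = 0.0795, 0.542 and 0.22). The second convertase gene pcsk2 was at 0.46 by its brightest probe (limma adjusted p = 0.119). Its 2 further probes were at -1.47 and -0.75, and both passed as lower (limma adjusted p = 0.00391 and 0.0112). The pcsk2 probes thus disagree, and no direction is given.

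Of 32 other neuropeptide genes measured, 9 rose and 4 fell, beside 16.3% and 21.7% of all genes, with a median change of 0.21. Without control replicate 3 the calls numbered 8 in place of 13. The gene for growth hormone-releasing hormone, ghrh, exceeded background on each of the 4 morphant arrays and on no control array. If its control level lay at or below a floor, it was at least 3.78-fold higher in the morphant pools (limma adjusted p = 0.000314). That p rests on control readings below background and adds nothing to the bound. For that bound, the morphant mean of -5.25 was set against the control mean of a floored level. On each control array this was the ghrh level or, if higher, the dimmest level among probes well above background. That floor is not a detection limit, because probes not well above background can read above it. With normexp and percentile scaling this ghrh probe was at 0.58 (limma adjusted p = 0.541). The other ghrh probe was at 2.81 and passed as higher (limma adjusted p = 0.000176). Whether its control readings were above background is not given here. The urotensin II-related gene urp2 and the somatostatin gene sst2 rose by 1.46 and 1.42 (limma adjusted p = 0.000425 and 0.00225). Among those that fell were npvf, an RFamide peptide gene of the hypothalamus, by 0.98, uts2b by 0.75 and sst6.2 by 0.56 (limma adjusted p = 0.0194, 0.00496 and 0.0259). Leaving out single arrays lost the calls of npvf and sst6.2 (adjusted p up to 0.0547 and 0.0721), and the replicate block that of sst6.2 (adjusted p = 0.0548). With normexp and percentile scaling npvf, uts2b and sst6.2 were at -0.50, -0.37 and -0.53 (limma adjusted p = 0.436, 0.569 and 0.0944). The gene pmchl, the other melanin-concentrating hormone gene of fish, read 1.1, 0.73, 1.05 and -0.27 in morphants, against 0.76, 0.40, 0.38 and 0.40 in controls, and changed by 0.17 (limma adjusted p = 0.681).

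**Figure D3:**
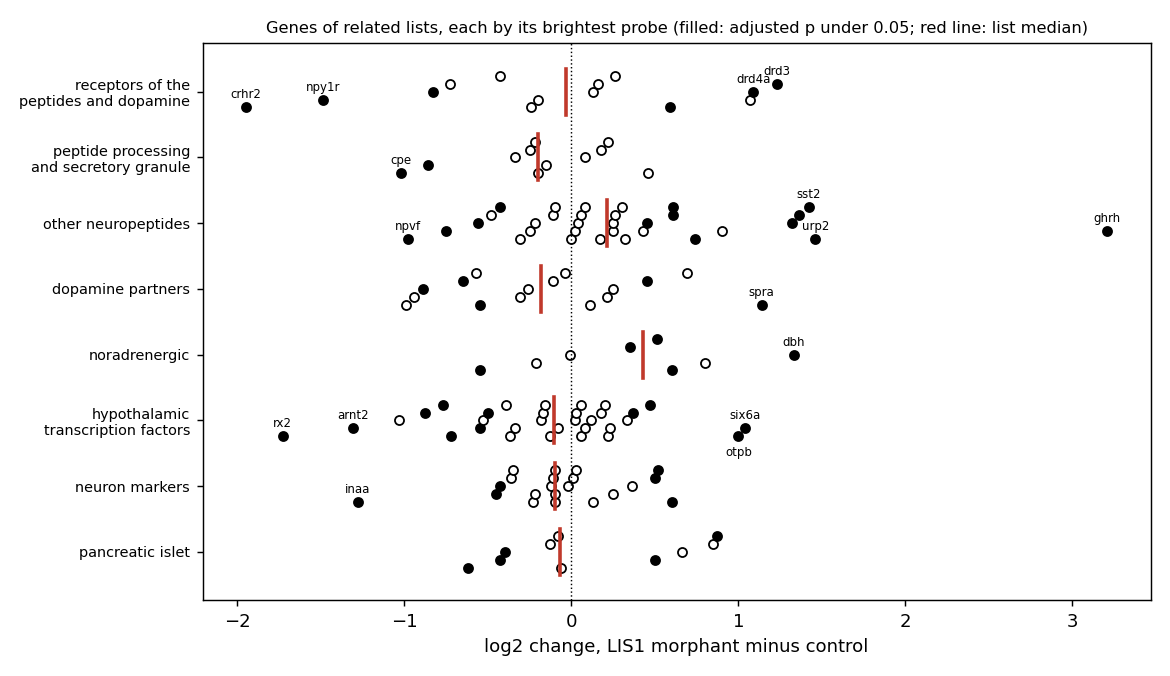
Log2 change, LIS1 morphant minus control, of each measured gene of 8 related lists, each by its brightest probe (filled where the adjusted p was under 0.05, with the list median as a red line). The points of each list lie on both sides of 0, and the fitted value of ghrh, at 3.21, has no control array above background behind it.

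Of 32 measured transcription factor genes listed for the hypothalamus and preoptic area, 4 rose and 7 fell, with a median of -0.11. These shares are close to the 16.3% and 21.7% of all genes. Their mean level lay between -0.92 and -0.60 in morphants and between -0.58 and -0.47 in controls. The homeobox gene otpb, needed in zebrafish for several neuroendocrine and dopaminergic neuron groups, rose by 1.0 (SE 0.16, limma adjusted p = 0.00162), as did its second probe, by 0.61. Its paralog otpa was at 0.23 (limma adjusted p = 0.294). The gene six6a rose by 1.04 and hmx3a by 0.47 (limma adjusted p = 0.00394 and 0.00896). The retinal homeobox gene rx2 fell by 1.73 and arnt2 by 1.31 (limma adjusted p = 0.000203 and 0.00661). Both are active outside the hypothalamus, so in whole larvae their signal need not come from it. For the genes of this list that rose, the source of the signal in whole larvae was not separated either. The gene pou3f2b fell by 0.88 (limma adjusted p = 0.0125), while its other probe was at 0.31. With normexp and percentile scaling arnt2 and the brightest pou3f2b probe were both at -0.53 (limma adjusted p = 0.503 and 0.241).

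Beside the fall of hcrt, lhx9, which promotes hypocretin neurons in zebrafish, read 1.04, 0.91, 1.03 and 0.90 in morphants, against 1.14, 1.2, 0.93 and 1.32 in controls. It changed by -0.18 (95% confidence interval -0.45 to 0.10, limma adjusted p = 0.274), while of its 2 further probes one was at -0.43 and passed as lower (limma adjusted p = 0.0366) and one at 0.22 (limma adjusted p = 0.438). The peptide genes qrfp and pdyn, known from neighbouring or the same hypothalamic neurons, both changed by 0.25 without passing (limma adjusted p = 0.338 and 0.188).

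Markers of neurons in general were measured for 21 genes, all above background, of which 3 rose and 3 fell, beside 16.3% and 21.7% of all genes, with a median of -0.10. Their mean level lay between 1.68 and 1.95 in morphants and between 1.80 and 1.95 in controls. The neuronal RNA-binding protein genes elavl3 and elavl4 changed by -0.22 and -0.10 (limma adjusted p = 0.534 and 0.638), and of 2 further elavl4 probes one was at -0.66 and passed as lower (limma adjusted p = 0.0425) and one at 0.18. The filament genes inaa and inab fell by 1.28 and 0.43, and the synuclein gene sncb fell by 0.45 (limma adjusted p = 0.00389, 0.0448 and 0.0438). The brightest probes of sypb, gap43 and eno2 rose by 0.60, 0.52 and 0.50 (limma adjusted p = 0.016, 0.0135 and 0.0483). Of the 3 other probes of sypb, that at -0.62 passed as lower (limma adjusted p = 0.0177). Those at -0.43 and -0.08 did not pass (limma adjusted p = 0.0796 and 0.703). The sypb probes thus disagree, and no direction is given for this gene. Leaving out single arrays lost the calls of inab, sncb and eno2 (adjusted p up to 0.11, 0.112 and 0.118), and the replicate block those of sncb and eno2 (adjusted p = 0.062 and 0.0914). Median scaling also lost those of inab and sncb (limma adjusted p = 0.0862 and 0.0806). So did normexp with quantile normalization (limma adjusted p = 0.0521 and 0.0576) and the deposited value table (limma adjusted p = 0.057 and 0.0646). The list had 3 calls in place of 6 without morphant replicate 1 or 2 or control replicate 2 or 3. Whether the number of neurons bears on the hcrt and crhb results was not tested.

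The scalings added later move all probes up together, with 32.3% of all probes passing as higher without scaling and 58.3% relative to the spike-in RNA, so that falls lose calls and rises keep them by construction. The rule for naming genes took 21 genes that fell and 19 that rose. Without scaling all 40 kept their direction, but 4 of the 21 still passed as lower, whereas all 19 passed as higher. Relative to the spike-in RNA, 12 of the 21 stayed below 0 and 2 of them passed, crhr2 and rx2. The other 9 that fell (nr4a2b, comta, sst6.2, sncb, inab, pax6b, isl1a, nkx6.2 and insm1a) were then above 0 without passing.

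**Figure D4:**
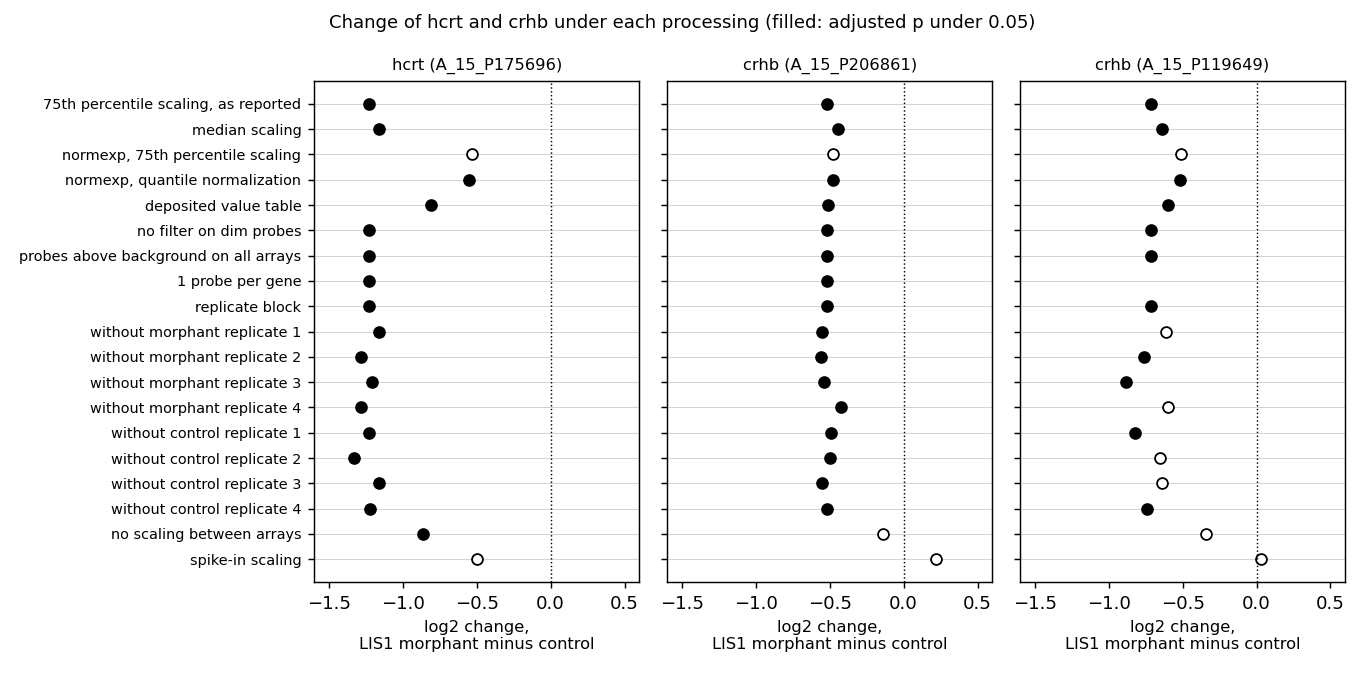
Log2 change of the hcrt probe and both crhb probes, LIS1 morphant minus control, under each way of processing (filled where the adjusted p was under 0.05). The hcrt change lies below 0 throughout, between -1.33 and -0.50, and both crhb probes cross 0 with spike-in scaling.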

How the data were processed

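Cy3-labelled cRNA was hybridised to 1-colour arrays, whose labelling protocol names mouse arrays while the file headers give Agilent design 026437 and a zebrafish build. Per the file headers, Feature Extraction 10.7.3.1 made the intensity values of the scanner files, which are not scaled between arrays. A deposited table gives log2 values with column medians of 8.13. How they were made is not given in the sources used here, and their centring is unknown. In rank order, 6 of its 8 columns matched a different array of their group (Spearman correlation 1). Replicate numbers thus conflict between that table and the scanner files, and which is right is not known here. The numbers in this text follow the scanner files, and the table served only as an alternative.

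From log2 processed signals the 75th percentile of the array was subtracted. Control and outlier spots were left out and spots of a probe averaged. Probes were tested if well above background on all 4 arrays of a group (36700 of 43603). Names came from RefSeq (assembly GRCz12tu) through unversioned accessions, for 25069 probes. No file held probe sequences, and none is printed. R 4.3.3 and limma 3.58.1 were used, with 1 fit over all probes and Benjamini-Hochberg adjustment over all. In lists a gene is its brightest probe. From each related list the text names up to 3 genes per direction that passed, by size of change, and genes tied to a single member. The hormone genes ins and gcga, the islet list genes pdx1 and neurod1 and the neuron markers elavl3 and elavl4 were named after their values were seen. Members and lists were chosen with earlier results of these data known. SE and intervals are moderated (95%).

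Replicate numbers mark a shared slide and scan, and deviations from group means correlated between same-numbered arrays at 0.444, 0.14, 0.304 and 0.259, which pairs the samples. The reported fit has no block, and the blocked fit is an alternative. The replicates are labelled as separate pools. Alternatives were median scaling, normexp (offset 50, on median signals, as mean signals were not used) with percentile or quantile scaling, the deposited table, other filters, 1 probe per gene, the replicate block and leaving out each array. No scaling and spike-in scaling (8 of 10 spike-in probes, above background throughout) were added after seeing the data, for the member probes and the named genes. The fit was tested on simulated data.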

Additional observations from a re-analysis of the deposited data

Results flagged for a closer look

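A single pool stood far from the other 3 of its group in 6 of the 102 groups of 4 values looked at, and chance flags about 1 in 20. Of the neuropeptide probes, the brighter crhb probe was at -0.50 in morphant replicate 4, against -0.13 to -0.08 in the other morphants, and the second th probe (A_15_P633231) was at -4.02 in the same pool, against -3.70 to -3.64. Without morphant replicate 4 the crhb change was -0.42 and still passed (limma adjusted p = 0.0272). Among genes of the related lists, insm1a was at 1.53 in control replicate 4, against 1.87 to 1.89 in the other controls. In the same pool ghrh was at -7.31, against -8.93 to -8.76. The npy1r probe was at -5.49 in control replicate 1, against -4.21 to -4.08, and mnx1 was at -1.19 in morphant replicate 1, against -1.39 to -1.36.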

How the results depend on the processing

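With normexp and 75th percentile scaling 3948 of all probes passed, against 14116 as reported, 16 genes of the related lists, against 53, and 0 of the neuropeptide probes, though 2 of these had an unadjusted p under 0.05 in that limma fit. The changes there were -0.53 for hcrt (limma adjusted p = 0.479) and -0.48 and -0.51 for crhb (adjusted p = 0.0571 and 0.184), and the second th probe turned to 0.00937. The cause was not tested. With 1 probe per gene 8961 passed, of fewer features tested. Of all calls 54.7% were lower, but 45.3% with normexp and percentile scaling, 21.1% without scaling and 7.3% with spike-in scaling. Median scaling turned the second oxt probe to 0.00912. Leaving out 1 array gave -1.33 to -1.16 for hcrt, -0.56 to -0.42 and -0.88 to -0.60 for crhb and -0.19 to 0.04 for that oxt probe. With the replicate number as a block hcrt and crhb kept their calls (limma adjusted p = 0.00341, 0.0197 and 0.00904), no other neuropeptide probe passed, and 16194 of all probes did. The block gave 8 calls among receptors, 7 among dopamine genes, 13 among hypothalamic transcription factors, 6 among islet genes and 4 among neuron markers, against 6, 5, 11, 5 and 6, and it left the counts of the other related lists as they were.

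Without scaling hcrt was at -0.86 (limma adjusted p = 0.0157), crhb at -0.14 and -0.34, oxt at 0.29 and 0.31, npy at 0.10 and th at 0.08 and 0.26, and avp at 0.70 and sst1.1 at 0.56 then passed (adjusted p = 0.0387 and 0.0373). With spike-in scaling hcrt was at -0.50 (adjusted p = 0.0631), crhb at 0.22 and 0.03, oxt at 0.65 and 0.67, npy at 0.47, th at 0.45 and 0.63, avp at 1.07 and sst1.1 at 0.92, and oxt, avp, sst1.1 and the second th probe (0.63) passed as higher (adjusted p = 0.00208 to 0.0219). Of the related genes that fell, nr4a2b was then at 0.09, comta at 0.19, sst6.2 at 0.17, sncb at 0.29, inab at 0.31, pax6b at 0.11, isl1a at 0.31, nkx6.2 at 0.34 and insm1a at 0.19. Both follow from the shift of all probes, whose median change was 0.34 and 0.71 in these settings, against -0.03 as reported. Processed signals of hcrt ran from 55.1 to 177, and the normexp offset was 50. Whether this offset bears on the smaller hcrt change with normexp was not tested.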

Other observations

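Morphant replicate 4 gave the lowest level of the 4 morphant pools for 9 of the 11 neuropeptide and th probes, covering every probe of 5 of the 7 genes (oxt, avp, npy, crhb and th). Over all probes tested it was the lowest morphant pool for 28.1%. For hcrt it was the highest of the morphants, at -4.37.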
